A study of Mus musculus with 24 samples.

Results

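The genes Jpt1, Lnx1, Dcakd, Rhbdl3, Ndnf, Tent5a and 2010001K21Rik were grouped as having little known role in the heart. That description was not checked here against published work on each gene. They were selected on their measured levels, which differed strongly in hearts in which Fkbp1a was deleted early, so their differences from those hearts are described here without a test. All 7 were found by symbol among 52724 gene rows, and all 7 were among the 16018 genes that passed the filter on low counts. Fkbp1a encodes FKBP12, a small protein that binds FK506 and rapamycin and associates with the ryanodine receptor, the calcium release channel of muscle. FKl/l hearts carry floxed Fkbp1a alleles and no Cre recombinase. MHC CRE Only hearts carry Cre driven by the α-myosin heavy chain promoter and no floxed allele. FKl/l MCK+ hearts are floxed with Cre driven by the muscle creatine kinase promoter, and FKl/l MHC+ hearts are floxed with the α-myosin heavy chain driver. Per the study's design the α-myosin heavy chain driver acts from embryonic day 9 and the creatine kinase driver from day 13, and they also differ in the amount of Cre, so that time, driver and Cre level cannot be told apart. Both promoters act in muscle cells, and the other cells of the heart are not their target. There is no group with the creatine kinase driver alone. There were 6 libraries of each genotype, split evenly over 2 batches (3 and 3), and a library is called by genotype, batch and number. Neither ages nor whether a library stands for a separate animal could be read from the labels, so p-values measure the spread between libraries.

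The genes belong to unrelated families. Jpt1 is named for Jupiter, a microtubule-binding protein of Drosophila. Lnx1 encodes a RING-type ubiquitin ligase with PDZ domains that binds NUMB, an inhibitor of Notch signalling. Tent5a encodes a non-canonical poly(A) polymerase, an enzyme that lengthens the tails of messenger RNAs, and in mouse osteoblasts it acts on collagen transcripts. Ndnf encodes a secreted glycoprotein first described as a survival factor for neurons, and in mice it also acts on endothelial cells. Dcakd encodes a protein with a dephospho-CoA kinase domain, the activity that completes the synthesis of coenzyme A, which carries acyl groups in fuel oxidation. Rhbdl3 belongs to the rhomboid family, membrane proteins that include proteases cutting their substrates within the membrane. 2010001K21Rik is annotated as a processed transcript with no coding sequence.

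Gene positions follow GENCODE M21 (GRCm38). Jpt1 (ENSMUSG00000020737) spans chr11:115497353-115514387, Dcakd (ENSMUSG00000020935) chr11:102994047-103028333, and Rhbdl3 (ENSMUSG00000017692) chr11:80300912-80355955. These 3 lie on chromosome 11, which holds 7.97% of the genes tested, on the minus, minus and plus strands. Lnx1 (ENSMUSG00000029228) spans chr5:74592447-74702912 on the minus strand, and Ndnf (ENSMUSG00000049001) chr6:65671590-65712326 on the plus strand. Tent5a (ENSMUSG00000032265) spans chr9:85320439-85327348 on the minus strand. 2010001K21Rik (ENSMUSG00000051606) spans chr13:46979908-47011195 on the plus strand.

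RefSeq promoter windows of GRCm38.p6, from 250 bases before to 50 after the start, were at hand for Jpt1, Lnx1, Dcakd and Tent5a, 4 of the 7 genes. The windows of Jpt1 and Lnx1, whose levels were higher in FKl/l MHC+, and of Dcakd, whose level was lower, are shown to compare their letters. They span chr11:115514344-115514643, chr5:74702854-74703153 and chr11:103017098-103017397, each read 5′ to 3′ on the minus strand, which is the strand of the gene. Capitals mark matches, on either strand, to the CCAAT box (CCAAT), the GC box (GGGCGG), the TATA box (TATAAA), the AP-1 site (TGANTCA) and the GATA core (AGATAA).
Jpt1: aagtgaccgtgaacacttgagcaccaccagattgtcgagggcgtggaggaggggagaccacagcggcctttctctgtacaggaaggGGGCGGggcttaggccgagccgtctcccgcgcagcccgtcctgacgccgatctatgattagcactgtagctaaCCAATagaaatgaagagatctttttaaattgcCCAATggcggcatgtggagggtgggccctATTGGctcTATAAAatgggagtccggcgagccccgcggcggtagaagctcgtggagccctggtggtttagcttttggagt
Lnx1: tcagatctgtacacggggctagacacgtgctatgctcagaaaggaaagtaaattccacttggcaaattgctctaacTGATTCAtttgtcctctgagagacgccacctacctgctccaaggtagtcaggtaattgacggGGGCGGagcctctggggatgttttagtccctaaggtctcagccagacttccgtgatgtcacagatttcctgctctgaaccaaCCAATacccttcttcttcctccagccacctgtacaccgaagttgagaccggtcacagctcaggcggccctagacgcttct
Dcakd: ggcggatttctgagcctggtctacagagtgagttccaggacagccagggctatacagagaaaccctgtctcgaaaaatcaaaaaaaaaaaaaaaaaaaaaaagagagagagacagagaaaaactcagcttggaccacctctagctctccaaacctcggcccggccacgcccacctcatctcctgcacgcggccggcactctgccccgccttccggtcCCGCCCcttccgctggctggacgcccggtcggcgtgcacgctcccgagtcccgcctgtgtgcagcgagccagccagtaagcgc
Jpt1 held 3 CCAAT boxes, with first bases 91, 59 and 30 bases upstream of the start, a GC box 164 bases upstream and a TATA box 22 bases upstream. Lnx1 held a CCAAT box 30 bases upstream, a GC box 112 bases upstream and an AP-1 site 174 bases upstream. Dcakd held a GC box 33 bases upstream and none of the other letters. Its window belongs to a start inside the gene span, whose 5′ end is at 103028333, while the Jpt1 and Lnx1 windows hold the 5′ ends of their genes. Tent5a, not printed, had 2 overlapping windows from separate starts. The first held GC boxes 54 and 36 bases upstream and a TATA box 178 bases upstream, and the second the same letters 80, 62 and 204 bases upstream of its own start. A GC box thus stood in the windows of all 4 genes, while 35.7% of 32851 RefSeq windows hold one. The CCAAT box stood in 2 of the 4, against 37.4% of all windows, the TATA box in 2 of 4 against 13.6%, and the AP-1 site in 1 of 4 against 7.8%. The GATA core was in none of the 4 and is in 11.2% of all windows. GC content was 57.3% for Jpt1, 51.7% for Lnx1, 59.0% for Dcakd and 70.3% and 72.0% for the Tent5a windows, beside a median of 52.7% over all windows. These matches are descriptions of letters, and the GC box was shared by genes whose FKl/l MHC+ levels lay on opposite sides of FKl/l.

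Before the genes themselves, the labels were checked on Fkbp1a. Its level was 120.8 to 147 CPM (counts scaled to library size) in FKl/l, 51.1 to 81.1 in FKl/l MCK+ and 43.5 to 75.7 in FKl/l MHC+. The deletions were both called against FKl/l in the edgeR quasi-likelihood fit, FKl/l MCK+ at a log2 fold change of -1.0 (adjusted p = 0.00032) and FKl/l MHC+ at -1.15 (adjusted p = 5.47e-06). One library was low for its label: that labelled MHC CRE Only 1-3 had 81.8 CPM of Fkbp1a, while the other 5 of its genotype lay between 122 and 138. That library was still above the highest of FKl/l MCK+ (81.1) and of FKl/l MHC+ (75.7). For 5 of the 7 genes (Jpt1, Lnx1, Dcakd, Rhbdl3 and Ndnf) it was also the library of its genotype farthest toward FKl/l MHC+, and for 3 of these (Jpt1, Dcakd and Rhbdl3) it lay within the FKl/l MHC+ range. Fold changes over both batches that rest on MHC CRE Only are therefore given a second time with that library removed. For these 5 genes its removal in itself widens the difference from FKl/l MHC+. The library labelled MHC CRE Only 2-3 and FKl/l 1-1 had the highest summed lung and airway markers, 516 and 149 CPM. All 6 cardiomyocyte markers were detected in every genotype, with sums between 37700 and 49140 CPM in each library. Gene counts ranged from 27799403 to 40412640 per library.

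In FKl/l hearts the order per transcript length, in TPM (counts scaled to exon length and library size), was Jpt1 with 64.6 ± 7.07 (SD, n = 6), Dcakd with 24.4 ± 3.94, Tent5a with 5.8 ± 0.693, Rhbdl3 with 3.97 ± 0.642, Lnx1 with 2.91 ± 0.701, Ndnf with 1.65 ± 0.409 and 2010001K21Rik with 0.967 ± 0.178. Jpt1 was thus the most abundant of the 7 and 2010001K21Rik the least, with 54 to 91 counts per FKl/l library. All other levels below are in CPM, which compares libraries for 1 gene and not genes with each other. In whole hearts, fewer cells of a type and less RNA per cell cannot be told apart.

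Jpt1 was highest in FKl/l MHC+. Its level (lowest, median and highest of 6 libraries) was 69.7, 79.9 and 83.7 CPM in FKl/l, 73.8, 86.2 and 101.3 in MHC CRE Only, 67.1, 75.5 and 81.0 in FKl/l MCK+, and 100.7, 120.7 and 133 in FKl/l MHC+. Every FKl/l MHC+ library was above every FKl/l and FKl/l MCK+ library, and 5 of the 6 were above every MHC CRE Only library. The exception rests on the library labelled MHC CRE Only 1-3, with 101.3 CPM, since the other 5 reached at most 91.6. FKl/l MHC+ exceeded FKl/l by a log2 fold change of 0.58 (SE 0.0683), which is 1.5-fold, and MHC CRE Only by 0.45 (SE 0.0682), or 0.48 without that library. Against FKl/l the log2 fold change was 0.70 in batch 1 and 0.49 in batch 2.

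Lnx1 had 4.94, 6.48 and 7.62 CPM in FKl/l, 6.08, 6.69 and 9.6 in MHC CRE Only, 6.14, 7.3 and 9.62 in FKl/l MCK+, and 10.0, 11.4 and 13.0 in FKl/l MHC+. The 6 FKl/l MHC+ libraries were above all 18 others. The other genotypes overlapped, and the highest 2 libraries among them were FKl/l MCK+ 2-1 and the library labelled MHC CRE Only 1-3. Relative to FKl/l the FKl/l MHC+ log2 fold change was 0.88 (SE 0.115), and relative to MHC CRE Only it was 0.69 (SE 0.115), or 0.83 without the library labelled MHC CRE Only 1-3. The Lnx1 exons share 12.2% of their bases with Fip1l1 on the opposite strand, and Fip1l1 had a log2 fold change of 0.08 in the same comparison (adjusted p = 0.602).

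Tent5a had overlapping groups. Its level was 14.5, 19 and 22.4 CPM in FKl/l, 14.1, 16.1 and 21.3 in MHC CRE Only, 15.9, 18.2 and 22.9 in FKl/l MCK+, and 17.9, 24.5 and 28.9 in FKl/l MHC+. Of the 6 FKl/l MHC+ libraries, 4 were above every FKl/l library. Within batch 1 all 3 were above the FKl/l libraries of that batch, and within batch 2 this held for 2 of 3. Within each batch all 3 were above the MHC CRE Only libraries of that batch. Against FKl/l the difference on the log2 scale was 0.35 (SE 0.0764), the smallest in size of the 7, and 0.46 and 0.27 in batches 1 and 2. Against MHC CRE Only it was 0.52 (SE 0.077), or 0.50 without the library labelled MHC CRE Only 1-3. By batch that difference was 0.57 and 0.49.

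2010001K21Rik had the largest fold of the 7. Its level was 1.51, 2.04 and 2.27 CPM in FKl/l, 2.04, 2.39 and 3.31 in MHC CRE Only, 1.69, 2.41 and 2.74 in FKl/l MCK+, and 3.79, 4.92 and 7.13 in FKl/l MHC+. The 6 FKl/l MHC+ libraries were above all 18 others. Against FKl/l the log2 fold change was 1.35 (SE 0.144), rank 27 from the top among all genes tested. That level is uncertain, because 1292 of its exon bases, 35.6%, lie within the opposite-strand processed pseudogene Gm5790, and no source used here says whether the counting used strand. Gm5790 was higher as well, with 0.886 ± 0.331 CPM in FKl/l and 3.03 ± 0.784 in FKl/l MHC+ (SD, n = 6 each), a log2 fold change of 1.76 with an SE of 0.266 (edgeR, adjusted p = 0.000302). Within genotype and batch the levels of the pair had a Pearson r of -0.03 over 24 libraries, given as a description. In FKl/l MHC+ against FKl/l, Gm5790 was the 1 gene called among 58 tested genes within 250 kb of the 7. No tested gene lay that near Tent5a. Over all genes tested 1.71% were called there, so nothing is read from this count.

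**Figure D1:**
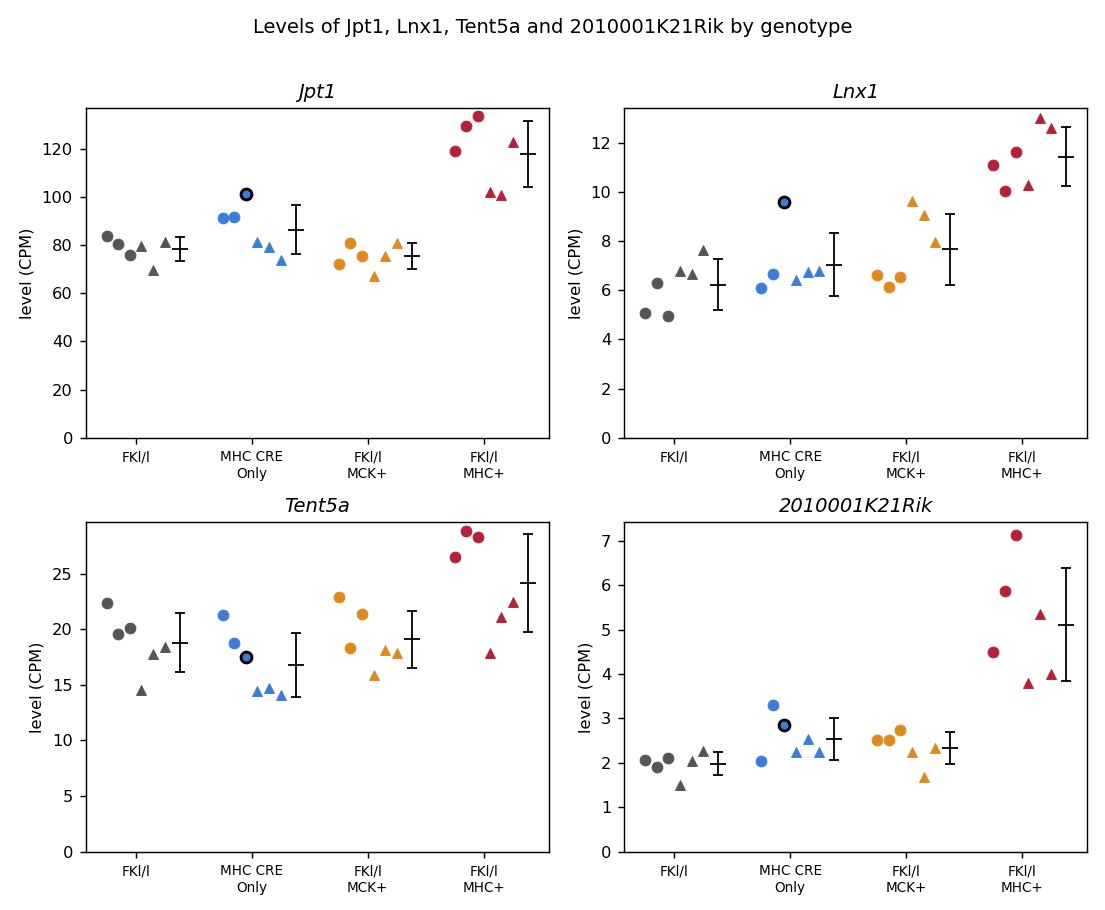
Levels in CPM (vertical axes, linear from 0) of Jpt1, Lnx1, Tent5a and 2010001K21Rik in each library, by genotype. Circles are batch 1, triangles batch 2, black bars the mean ± SD of 6 libraries, and the ringed point is the library labelled MHC CRE Only 1-3. For Lnx1 and 2010001K21Rik the 6 FKl/l MHC+ libraries lie above all others, while for Tent5a they overlap every other genotype.

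Ndnf was high in both genotypes with the α-myosin heavy chain driver, with or without floxed alleles. Its level was 7.47, 9.3 and 11.6 CPM in FKl/l, 11.7, 14.2 and 19.9 in MHC CRE Only, 5.08, 7.32 and 9.47 in FKl/l MCK+, and 14.6, 16.03 and 18.6 in FKl/l MHC+. Every library with that driver was above every library without it, with the nearest at 11.7 and 11.6 CPM. The share of all genes tested separated in this way was not computed. The highest value of all, 19.9, was in the library labelled MHC CRE Only 1-3, and none of the FKl/l MHC+ libraries exceeded it. Setting that library aside, 4 of the 6 FKl/l MHC+ libraries were above the other 5 MHC CRE Only libraries. FKl/l MHC+ was above FKl/l by a log2 fold change of 0.82 (SE 0.138) and above MHC CRE Only by 0.16 (SE 0.136), or 0.29 without the library labelled MHC CRE Only 1-3. With all libraries, the difference from MHC CRE Only was 0.02 in batch 1 and 0.34 in batch 2.

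The comparison of FKl/l MCK+ with MHC CRE Only sets a deletion with 1 driver against the other driver without a deletion. It holds no FKl/l MHC+ library, but the genes were picked across the 4 genotypes, so its p-values are not independent of that choice. Ndnf was 2.04-fold lower in FKl/l MCK+ (-1.03 on the log2 scale, SE 0.141, edgeR adjusted p = 0.000709), and all 6 libraries were below all 6 of MHC CRE Only. The share of all genes tested without overlap between these 2 genotypes was not computed. The difference was -1.43 in batch 1 and -0.66 in batch 2. Leaving out the library labelled MHC CRE Only 1-3 gave -0.90 (SE 0.126, adjusted p = 0.000484), and leaving out that library, MHC CRE Only 2-3 and FKl/l 1-1 gave -0.90 (SE 0.134, adjusted p = 0.00195). Of the 7 genes, 2 were called in this comparison, Ndnf and Dcakd, where 0.0999% of all genes tested were called. Leaving out MHC CRE Only 1-3 reduced the count to 1.

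With the driver alone, Ndnf was higher in all 6 libraries than in all 6 of FKl/l, a separation not counted over all genes. The log2 fold change was 0.66 (SE 0.138) and was not called (edgeR adjusted p = 0.0775). DESeq2 gave an adjusted p of 0.00261. Leaving out the library labelled MHC CRE Only 1-3 gave 0.53 (adjusted p = 0.136). FKl/l MCK+ and FKl/l differed by -0.37 (SE 0.141, adjusted p = 0.84), with overlapping libraries. These comparisons share libraries with the contrasts that chose the genes. In the authors' deposited table for the driver against FKl/l the log2 fold change of Ndnf was 0.63 with an adjusted p of 1. The authors' statistic sets a minimum fold of 1.2, while the edgeR and DESeq2 tests here ask for any difference, so the p-values are not alike.

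Dcakd was lowest in FKl/l MHC+ and highest in FKl/l MCK+. Its level was 31.3, 36.0 and 37.2 CPM in FKl/l, 26.7, 31.9 and 35.6 in MHC CRE Only, 34.9, 43.2 and 48.5 in FKl/l MCK+, and 22.6, 24.3 and 30.1 in FKl/l MHC+. The FKl/l MHC+ libraries were below every FKl/l and FKl/l MCK+ library, and 4 of 6 were below every MHC CRE Only library. Setting aside the library labelled MHC CRE Only 1-3, which had 26.7 CPM, all 6 were. The log2 fold change of FKl/l MHC+ was -0.44 (SE 0.0807) against FKl/l and -0.72 (SE 0.0809) against FKl/l MCK+. Against MHC CRE Only it was -0.31 (SE 0.0808), or -0.35 without the library labelled MHC CRE Only 1-3. In batches 1 and 2 it was -0.165 and -0.446 against MHC CRE Only, and -0.316 and -0.544 against FKl/l.

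In the same comparison, Dcakd was higher in FKl/l MCK+ than in MHC CRE Only by a log2 fold change of 0.40 (SE 0.0803, 1.32-fold, edgeR adjusted p = 0.0374). The groups overlapped, and 5 of 6 FKl/l MCK+ libraries were above every MHC CRE Only library. The call was lost in 14 of the 24 refits with a single library removed (highest adjusted p 0.115). Leaving out the library labelled MHC CRE Only 1-3 gave 0.36 (adjusted p = 0.0769), and leaving out all 3 doubted libraries gave 0.34 (adjusted p = 0.254). Within batches the difference was 0.38 and 0.40. FKl/l MCK+ exceeded FKl/l by 0.27 (SE 0.0801), which was not called (adjusted p = 0.532).

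Endothelial markers were examined beside Dcakd. The summed level of Pecam1, Cdh5, Kdr, Tek and Egfl7 (lowest, median and highest library) was 458, 540.1 and 639 CPM in FKl/l, 480, 525 and 591 in MHC CRE Only, 517, 588 and 677 in FKl/l MCK+ and 415, 470 and 524 in FKl/l MHC+. By edgeR's test 4 of the 5 markers were lower in FKl/l MHC+ than in FKl/l MCK+. None of the 5 was called in FKl/l MHC+ against FKl/l (median log2 fold change -0.20) or against MHC CRE Only (-0.19), nor in FKl/l MCK+ against FKl/l (0.12) or against MHC CRE Only (0.17). After removal of genotype and batch means, Dcakd had a Pearson r of 0.67 with the mean log2 CPM of the endothelial markers. With that of the fibroblast markers r was 0.54, over 24 libraries, which share depth and tissue. The part of these markers in the Dcakd differences was not tested. The Dcakd exons share 144 bases with Nmt1 on the opposite strand, whose log2 fold change between FKl/l MHC+ and FKl/l was 0.13 (adjusted p = 0.527).

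Rhbdl3 had 9.02, 10.3 and 12.3 CPM in FKl/l, 7.03, 8.56 and 10.7 in MHC CRE Only, 10.2, 11.04 and 13.6 in FKl/l MCK+, and 6.49, 7.34 and 8.52 in FKl/l MHC+. All FKl/l MHC+ libraries were below all FKl/l and FKl/l MCK+ libraries, and 2 of 6 were below every MHC CRE Only library. Without the library labelled MHC CRE Only 1-3 the latter count was 5 of 6. The log2 fold change of FKl/l MHC+ was -0.53 (SE 0.097) against FKl/l and -0.27 (SE 0.0975) against MHC CRE Only, or -0.34 without that library. FKl/l MCK+ and MHC CRE Only differed by 0.36 (SE 0.0962), which was not called (adjusted p = 0.175), and by 0.29 without it (adjusted p = 0.385).

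**Figure D2:**
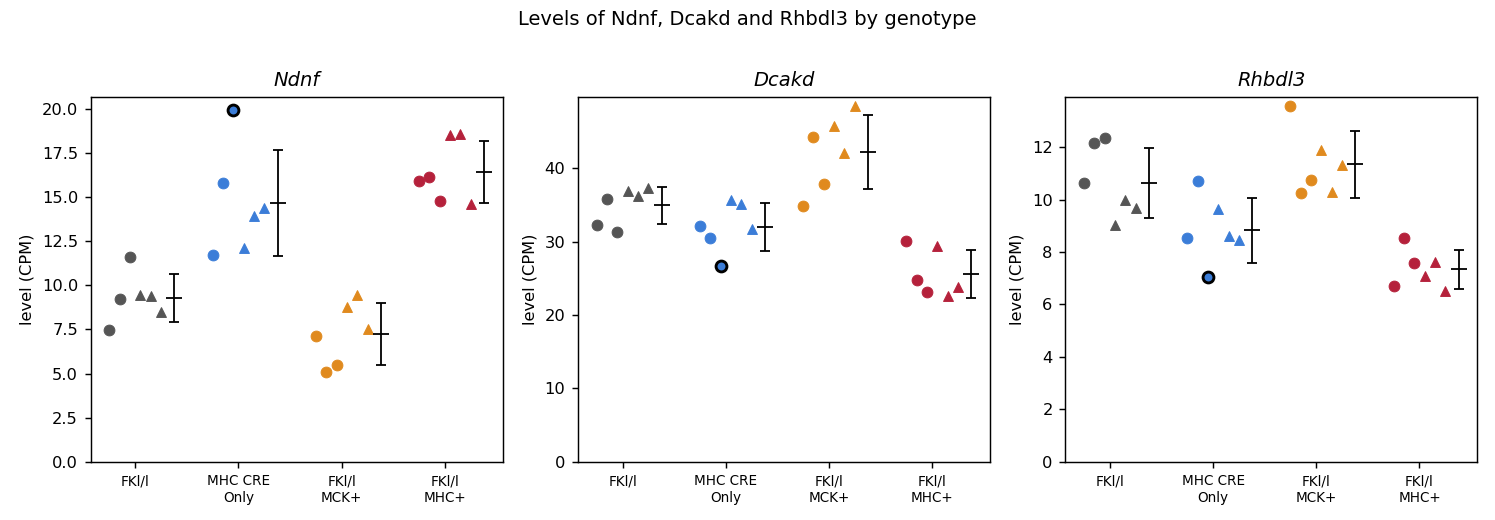
Levels in CPM (vertical axes, linear from 0) of Ndnf, Dcakd and Rhbdl3 in each library, by genotype, with circles for batch 1, triangles for batch 2, black bars for the mean ± SD of 6 libraries and a ring on the library labelled MHC CRE Only 1-3. Ndnf lies at 11.7 CPM or more in every library with the α-myosin heavy chain driver and at 11.6 or less in every other, and Dcakd is highest in FKl/l MCK+ and lowest in FKl/l MHC+.

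Between FKl/l MCK+ and MHC CRE Only, the other 4 genes were not called either. Jpt1 differed by -0.19 (adjusted p = 0.373), Tent5a by 0.19 (adjusted p = 0.43) and 2010001K21Rik by -0.13 (adjusted p = 0.811). Lnx1 differed by 0.11 (adjusted p = 0.8), with -0.22 in batch 1 and 0.41 in batch 2. Without the library labelled MHC CRE Only 1-3 these differences were -0.15 for Jpt1, 0.17 for Tent5a, -0.115 for 2010001K21Rik and 0.24 for Lnx1, with adjusted p-values between 0.57 and 0.91. At an unadjusted p under 0.05 there were 5 of the 7 genes with all libraries, beside 10.1% of all genes tested.

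Over all 7 genes, the FKl/l MHC+ libraries did not overlap FKl/l for 6, MHC CRE Only for 2 and FKl/l MCK+ for 6. Over all genes tested the share without overlap was 1.12%, 0.805% and 1.19%, and the share called was 1.71%, 1.87% and 2.15%. Those contrasts chose the genes, so nothing is read from the counts. Without the library labelled MHC CRE Only 1-3, the FKl/l MHC+ libraries were beyond the other 5 MHC CRE Only libraries for 4 of the 7 genes, and 1.64% of all genes tested had no overlap in that comparison of 6 with 5 libraries. Leaving out a library can only keep or raise such a count. That library was the one farthest toward FKl/l MHC+ for 5 of the 7 genes, so nothing is read from the rise.

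In the comparisons of the other genotypes with FKl/l, few genes were called. FKl/l MCK+ against FKl/l had 0.0499% of genes called, and none of the 7. At an unadjusted p under 0.05 there were 3, beside 5.24% of all genes tested, and DESeq2 and limma voom called 0. The log2 fold changes ranged from -0.37 for Ndnf to 0.30 for Lnx1, with an interval (2 SE to each side) of 0.06 to 0.53 for the latter. MHC CRE Only against FKl/l had 0.0437% of genes called and none of the 7, with 4 at an unadjusted p under 0.05, beside 12.9% of all genes tested. DESeq2 called 1 of the 7 there, Ndnf, and limma voom 0. The interval for Jpt1 was -0.19 to 0.08 in the former comparison and -0.002 to 0.27 in the latter, beside the 0.58 described for FKl/l MHC+. For Lnx1 the latter interval was -0.04 to 0.42, beside 0.88. Without the library labelled MHC CRE Only 1-3 the difference between MHC CRE Only and FKl/l was 0.10 (SE 0.0669) for Jpt1, against 0.13 with it, and 0.05 (SE 0.0966) for Lnx1, against 0.19 with it. In the authors' deposited tables, whose statistic sets a minimum fold of 1.2, all 7 had an adjusted p of 1 in both comparisons.

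**Figure D3:**
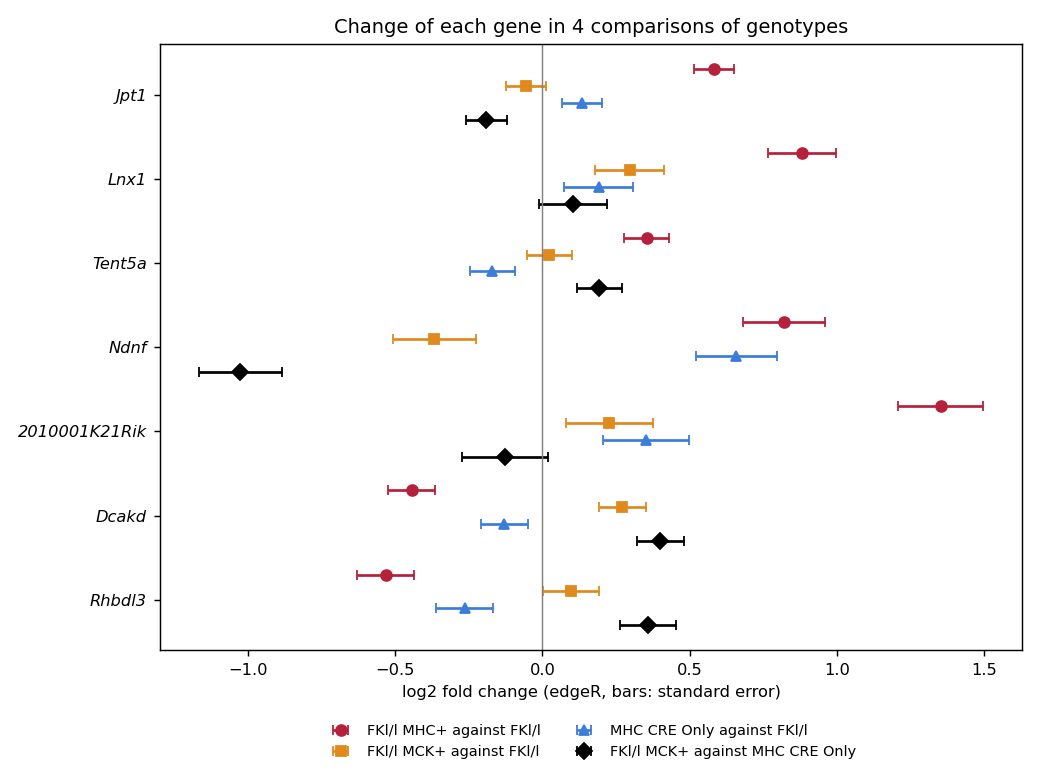
Log2 fold changes (horizontal axis) of the 7 genes in 4 comparisons of genotypes, with bars of 1 standard error from edgeR. The red points, FKl/l MHC+ against FKl/l, chose the genes, and the black diamonds, FKl/l MCK+ against MHC CRE Only, hold neither of those genotypes. Ndnf stands at -1.03 and Dcakd at 0.40 among the diamonds.

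By batch, 3 of the 7 genes were called, where 38.4% of all genes tested were called. At that share nothing is read from the count. Tent5a fell by 0.36 on the log2 scale in batch 2 (SE 0.0542, edgeR adjusted p = 7.75e-06), and its mean was lower in batch 2 in all 4 genotypes, such as 16.9 against 20.7 CPM in FKl/l. Jpt1 fell by 0.15 (SE 0.0483, adjusted p = 0.0145), or by 0.12 without the 3 doubted libraries (adjusted p = 0.0588). 2010001K21Rik fell by 0.26 (SE 0.102, adjusted p = 0.0465), a call lost in 15 of the 24 refits with a single library removed. Lnx1 was higher in batch 2 by 0.20 (SE 0.0817, adjusted p = 0.0533), and by 0.27 with the library labelled MHC CRE Only 1-3 left out (adjusted p = 0.00163). The interaction of batch with FKl/l MHC+ against FKl/l called 0.00624% of all genes tested, and since the 7 were chosen on those libraries it is not used as a test of them.

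Of 44 relatives, pathway partners and targets of these genes, 40 were tested and 0 were called by edgeR in any genotype comparison, where at most 2.15% of all genes tested were called. At an unadjusted p under 0.05 there were 5 of the 40 in FKl/l MHC+ against FKl/l (14.7% of all genes tested), 8 against MHC CRE Only (15.8%) and 3 against FKl/l MCK+ (15.4%). There were 3 in FKl/l MCK+ against FKl/l, 4 in MHC CRE Only against FKl/l and 6 in FKl/l MCK+ against MHC CRE Only. At those shares a count of 0 does not set the lists apart. In FKl/l MHC+ against FKl/l the median log2 fold change of the 40 was -0.03, beside -0.003 over all genes tested. Jpt2, the other Jupiter-family gene, had 5.11 ± 0.864 CPM in FKl/l and 5.21 ± 0.605 in FKl/l MHC+ (SD, n = 6; log2 fold change 0.03). Lnx2, the closest relative of Lnx1, had 8.31 ± 0.883 and 8.01 ± 1.04 CPM, and the LNX target Numb 20.7 ± 1.92 and 19.5 ± 2.72.

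Among coenzyme A genes, 12 of 13 listed were tested. Coasy, which carries out the final 2 steps of the synthesis, differed between FKl/l MHC+ and FKl/l by -0.17 (adjusted p = 0.231), and the mitochondrial coenzyme A carrier Slc25a42 had -0.46 (adjusted p = 0.23). By batch, 8 of the 12 were higher in batch 2, beside 22.2% of all genes tested, among them Pank3, a pantothenate kinase that begins the synthesis (0.46, adjusted p = 5.85e-06), and Slc5a6, a vitamin transporter that takes up pantothenate (0.50, adjusted p = 3.1e-06). Dcakd had 0.13 by batch (adjusted p = 0.0647).

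Of 8 other rhomboid genes, 7 were tested, and the mitochondrial rhomboid Parl differed between FKl/l MHC+ and FKl/l by 0.06 on the log2 scale (adjusted p = 0.72). Of 4 fibroblast growth factor receptor genes, listed because Ndnf has been tied to that pathway, 3 were tested, and Fgfr1 had 25.4 ± 2.97 CPM in FKl/l, 26.6 ± 2.15 in MHC CRE Only, 26.1 ± 1.75 in FKl/l MCK+ and 23.6 ± 1.71 in FKl/l MHC+ (SD, n = 6). Of 10 other nucleotidyltransferases, 9 were tested, and Tent5b had a log2 fold change of 1.0 with an SE of 0.423 (adjusted p = 0.26), at 0.948 ± 0.212 CPM in FKl/l and 1.89 ± 0.655 in FKl/l MHC+. The collagen and matrix mRNAs Col1a1, Col1a2 and Sparc, which TENT5A adenylates in mouse osteoblasts, had log2 fold changes between 0.07 and 0.11 in FKl/l MHC+ against FKl/l and none was called.

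Within genotype and batch, r between the 7 genes took both signs. Over the 21 pairs, Pearson r of log2 CPM after removal of genotype-by-batch means ran from -0.44 (Lnx1 and Dcakd) to 0.39 (Lnx1 and Ndnf, and also Rhbdl3 and 2010001K21Rik), with a median of -0.06 and 10 pairs above 0. Dcakd and Rhbdl3 were lower in FKl/l MHC+ and the others higher, so this median cannot tell whether the genes vary together. With the higher genes, Dcakd had r from -0.44 to -0.06, and Rhbdl3 from -0.40 to 0.39. The 24 libraries share depth and tissue, and these are descriptions. With the mean log2 CPM of cell type markers, the values of largest size were 0.67 for Dcakd with endothelial and -0.56 for Tent5a with fibroblast markers. Summed fibroblast markers, a different measure, had medians of 540.1 CPM in FKl/l, 520 in MHC CRE Only, 549 in FKl/l MCK+ and 564 in FKl/l MHC+, with overlapping ranges. The median log2 fold change of the 5 markers in FKl/l MHC+ against FKl/l was -0.07. Their part in the Tent5a differences was not tested.

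**Figure D4:**
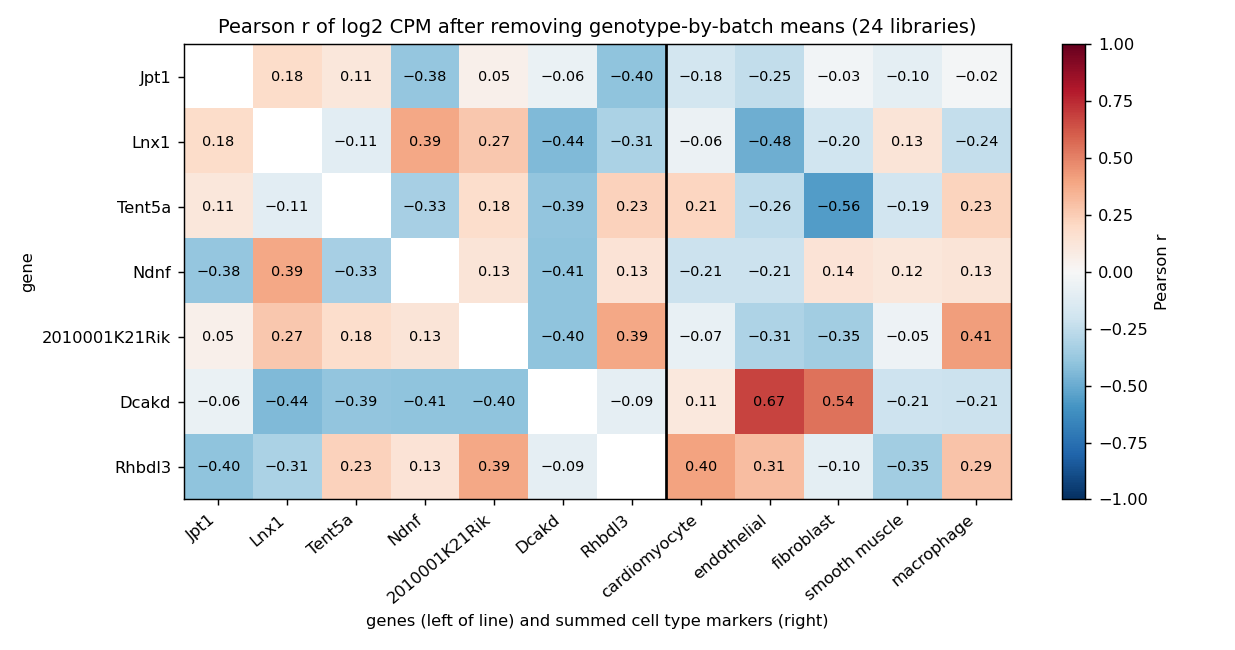
Pearson r (colour, from -1 to 1) of log2 CPM between the 7 genes, left of the black line, over 24 libraries after removal of the mean of each genotype and batch. Right of the line is r with the mean log2 CPM of the markers of 5 cell types, which the axis label calls summed. Dcakd has 0.67 with endothelial markers, and the pairs of the 7 genes lie between -0.44 and 0.39.

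Tested genes among those most like each of the 7, by Pearson r of batch-centred log2 CPM over the 24 libraries, are given as descriptions, since genes that differ in FKl/l MHC+ resemble each other by that alone. For Jpt1 they included the fast skeletal myosin-binding protein gene Mybpc2 (r = 0.90) and Cox19 (0.89). Lnx1 was most like Perp (0.91), Exoc4 (0.88), which encodes a subunit of the exocyst, and Wwc2 (0.87). The genes nearest to Tent5a were Ank3 (0.90), the heat shock protein gene Hsp90aa1 (0.86) and the kinesin gene Kif5b (0.86). 2010001K21Rik was nearest to Cdkn1a (0.88), the cell cycle inhibitor p21, the receptor kinase gene Grk5 (0.87) and Timp1 (0.86), an inhibitor of matrix proteases.

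The genes most like Ndnf were Cgref1 (0.83), Ephx1 (0.83), an epoxide hydrolase gene, and P4htm (0.82). Within genotype and batch these 3 had r of 0.46, 0.27 and 0.58. Dcakd was nearest to Gnb4 (0.88), the endothelial receptor gene Tie1 (0.86) and the endothelial cadherin gene Cdh5 (0.84), with 0.66, 0.76 and 0.76 within genotype and batch. Rhbdl3 was nearest to Dmd (0.83), which encodes dystrophin, Mcc (0.81) and the transcriptional repressor gene Nfil3 (0.79), with 0.55, 0.46 and 0.62 within genotype and batch.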

How the data were processed

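RNA was measured by sequencing in 24 libraries of whole mouse hearts, 6 for each of 4 genotypes. Per the labels' protocols, total RNA was extracted with TRIzol and libraries were made with a directional (strand-marking) kit. The authors deposited a table of whole-number read counts per gene and 5 tables of their own comparisons. Per the file headers, those deposited tables hold a log2 fold change, a test statistic (a score) and p-values. The authors' statistic is 0 for folds below 1.2, a minimum fold. Per the submitters' processing notes the build was mm10 and the tools included STAR, RSEM, Trim Galore, FastQC and bcl2fastq 2.17. No source used here gives the counting annotation, the strand setting or any rounding of RSEM estimates.

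Of 56384 rows, 3660 named by a transcript alone, with 0.873 to 4.28% of a library's counts, were not used. Depth, which sets the counting precision, was 27799403 to 40412640 counts in gene rows. Levels are CPM on library sizes scaled by the trimmed mean of M values, and TPM on exon lengths of GENCODE M21. Tests used the robust quasi-likelihood fit of edgeR 4.0.16 (with R 4.3.3 and limma 3.58.1) after filterByExpr, with terms for genotype and batch over 24 libraries. It covered 16018 genes, and a gene was called at a Benjamini-Hochberg adjusted p under 0.05. The scripts were tested on simulated data. Alternatives were DESeq2 1.42.0, limma voom, other size factors, no filter, no batch term, only the genotypes compared, single batches, a replicate block and each library left out. A fit without 3 doubted libraries was chosen after seeing the data.

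The 7 genes, the gene lists and the alternatives were chosen with earlier results of these data known. Genes were named by a rule: Fkbp1a, the 7 genes, list genes that were called or otherwise up to 4 per list by role, and the 3 genes most like each of the 7, of which 1 is not reported here.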

Additional observations from a re-analysis of the deposited data

Results flagged for a closer look

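Dixon's test for a library standing apart was applied to the 28 sets of 6 libraries (7 genes in 4 genotypes), and chance flags about 1 in 20 such sets. It marked 1 set, Lnx1 in MHC CRE Only. Lnx1 was at 9.6 CPM in the library labelled MHC CRE Only 1-3, where the other 5 averaged 6.54 ± 0.286 (SD, n = 5), and the gap to the nearest was 0.803 of the range of the 6. Its Fkbp1a level of 81.8 CPM also lay outside the range of the other 5, 122 to 138, as did that of Gm5790, 2.57 CPM against 0.777 to 1.3.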

How the results depend on the processing

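Of 1841 refitted log2 fold changes of the 7 genes, 1777 kept their direction and, where a threshold was applied, their side of it. Those described without a test were counted as kept if they moved by under 1 SD between libraries. Of the rest, 37 lost a call, 16 gained one, 6 of those described without a test moved by over 1 SD between libraries and 5 reversed. The cause of each change was not tested. Genes called in FKl/l MCK+ against FKl/l (8) were 17 with DESeq2, 5 with no batch term and 1 in batch 1 alone. For MHC CRE Only against FKl/l (7) they were 15 with no filter, 169 with DESeq2, 4 with no batch term, 4 with only the genotypes compared, 17 and 79 in batches 1 and 2 alone, and 4 without the 3 doubted libraries. For FKl/l MCK+ against MHC CRE Only (16) they were 26 with no filter, 57 with DESeq2, 6 with no batch term, and 5 and 44 in batches 1 and 2 alone. The interaction (1 gene) had 0 with other size factors and with limma voom, 691 with no filter, 186 with DESeq2 and 120 without the 3 doubted libraries. With 1 library left out these counts ranged from 5 to 11, 4 to 17, 8 to 23 and 0 to 108. Of the 7 genes, 1 in place of 2 was called in FKl/l MCK+ against MHC CRE Only with no batch term, in batch 1 alone, in batch 2 alone and without the 3 doubted libraries, and 1 to 2 with 1 library left out. In MHC CRE Only against FKl/l, 1 in place of 0 was called with DESeq2 and in batch 2 alone, and 0 to 1 with 1 library left out. Reversed directions were -0.22 for Lnx1 in FKl/l MCK+ against MHC CRE Only in batch 1 alone, -0.071 for Lnx1 in MHC CRE Only against FKl/l in batch 2 alone, and -0.031 for Rhbdl3 in FKl/l MCK+ against FKl/l in batch 1 alone. Tent5a in that comparison ranged from -0.012 (without FKl/l 2-1) to 0.065 with 1 library left out, and was below 0 also without FKl/l MCK+ 2-2. The median correlation between the 7 genes ranged from -0.104 to 0.072 with 1 library left out, and was above 0 without MHC CRE Only 1-3, FKl/l MCK+ 1-2 or FKl/l MHC+ 1-1. Libraries with the same number did not vary together (r from -0.239 to 0.162 over 36 pairs). Paired libraries can share little variation, so this cannot tell whether the numbers pair them. With the replicate block in place of batch, 7, 6 and 13 genes were called in FKl/l MCK+ against FKl/l, MHC CRE Only against FKl/l and FKl/l MCK+ against MHC CRE Only, with 0, 0 and 2 of the 7. Depth limits 2010001K21Rik most, with 54 to 239 counts over FKl/l and FKl/l MHC+ libraries.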
